A study of Mus musculus with 2 samples.

Results

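Described here are 7 genes of T cell costimulation: the receptors Cd28, Icos and Cd226, the ligands Icosl, Cd80 and Cd86, and Cd40, the receptor through which T cells act back on the cells that present antigen to them. They were chosen by name from the 28482 genes of a single-cell count matrix, and all 7 have a row in it. The cells were CD45+ cells, that is leukocytes and microglia, taken from spinal cord in experimental autoimmune encephalomyelitis (EAE), a mouse model in which T cells attack myelin. The mice were of strain C57BL/6 and were sampled on day 15 of the disease protocol. All 4 mice had EAE; 2 were untreated and 2 received an inhibitor; no source used here gives its name, target, dose or schedule. The series title also names STAP-1 mice, but the hashtag labels of these 4 mice give C57BL/6 and no allele. Each mouse carried its own hashtag antibody, and the cells of all 4 were pooled on 1 BD Rhapsody run, so library and sequencing were shared. The spread between mice holds that between animals and their cell preparations, and also the noise of counting, which is larger where cells or counts are few.

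A T cell that meets its antigen needs a second signal. CD28 on the T cell receives it from CD80 and CD86, the B7 ligands of dendritic cells, B cells and activated myeloid cells, while CTLA4 binds the same ligands and takes them away. ICOS, a relative of CD28, appears after activation and binds ICOS ligand, and CD226 binds the nectin-like proteins CD155 and CD112, encoded in the mouse by Pvr and Nectin2, in competition with the inhibitory receptors TIGIT and CD96. CD40 is engaged by CD40 ligand on T cells and acts through TRAF adaptors and NF-kB, and in EAE both CD28 and CD40 signals are known to be needed for the disease to develop.

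After filtering, 4327 and 4538 cells of the untreated and 5445 and 4946 cells of the inhibitor-treated mice were kept, with 48875035 to 61576152 counts per mouse and a median of 8186 to 8593 counts per cell. They formed 24 clusters, which were named from marker genes and joined into 18 classes, so a class name stands for cells that resemble that type. No column number was shared between mice, and 15.49% of the deposited columns, which carried more than 1 hashtag, were left out. The makeup differed between mice: CD4 T cells were 25.9% and 35.7% of the cells without and 11% and 26.1% with the inhibitor, and neutrophils 24.0% and 19.2% against 62.7% and 37.5%. No cluster was named for endothelial cells, oligodendrocytes or astrocytes, and 572 cells with a median of 3096 counts, nearly all from a cluster led by Malat1, stayed unnamed. Levels are given as CPM, the counts of a gene in a class of 1 mouse scaled to a class sum of 1000000, in the order untreated 1, untreated 2, inhibitor 1, inhibitor 2. They compare cells for 1 gene and not 1 gene with another. Since classes were made by clustering, differences between classes are descriptions without a test, and a class is called apart from another where the ranges over mice do not overlap.

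Transcripts of the T cell receptor complex (6 genes, among them Cd3e and Trac) were not confined to T cells, which bears on every T cell gene seen elsewhere. They summed to 5676 to 5934 CPM in CD4 T cells, 551.9 to 1058 CPM in conventional dendritic cells, where 68.5% of cells had at least 1, and 95.18 to 297.1 CPM in microglia. A cluster of 423 cells with microglia markers had 2040 to 3117 CPM of them and is kept as a class of its own.

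Cd28, the primary costimulatory receptor, lies on chromosome 1 (60716800 to 60773359, plus strand, GRCm38), next to Ctla4 (60887000 to 60915832) and Icos (60977927 to 61000320) in the GENCODE annotation. Its level in the 4630 CD4 T cells was 188.9, 208.6, 213.3 and 173.8 CPM (196.1 ± 18.3, SD, n = 4 mice). The values of the untreated mice lay between those of the treated mice. Regulatory T cells, marked by Foxp3, had 161.0, 196.3, 222.7 and 135.5 CPM, overlapping the CD4 T cells, and CD8 T cells had 113.7, 178.5, 157.9 and 81.84 CPM. The order then ran over a T cell cluster led by Klra6, Cd160 and Xcl1 (84.80 ± 11.3 CPM) and NK cells (64.64 ± 15.0 CPM) to gamma-delta T cells (24.58 ± 21.9 CPM), with overlap between neighbours. The range of gamma-delta T cells lay below those of CD4, regulatory and CD8 T cells. Neutrophils, which lack the receptor, had 2.688 CPM. The 23.99 ± 11.4 CPM in conventional dendritic cells came from cells that also held T cell receptor transcripts: the level was 32.52 CPM in 317 cells with such transcripts and 0 in 146 cells without.

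Icos, the inducible relative of Cd28, stood highest in regulatory T cells, at 980.8, 1080, 1316 and 1194 CPM (1143 ± 145, SD, n = 4). The lowest of these mice lay above the highest of any other class. CD4 T cells had 580.5, 677.4, 599.7 and 628.9 CPM and gamma-delta T cells 533.1, 662.5, 682.6 and 557.7 CPM. These 2 classes overlapped each other and stayed apart from CD8 T cells at 331.3 ± 56.0 CPM. So gamma-delta T cells, innate-like lymphocytes that make IL-17 in EAE, had Icos at the level of CD4 T cells with the lowest mean Cd28 of the T cell classes. With each cell thinned to 2000 counts, 68.8% of regulatory T cells, 46.4% of CD4 T cells and 42.2% of gamma-delta T cells had an Icos count, against 1.41% of neutrophils, which do not make ICOS (unthinned 82.0%, 63.2%, 58.6% and 5.17%, at medians of 8482, 7226, 7396 and 8916 counts per cell).

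Cd226, an activating receptor of cytotoxic and effector lymphocytes, on chromosome 18 (89176967 to 89272229, plus strand), was highest in CD8 T cells at 309.1, 311.0, 358.6 and 354.8 CPM (333.4 ± 27.0). Every mouse exceeded the highest mouse of the next class, gamma-delta T cells (244.7 ± 37.8 CPM). CD4 T cells had 203.3, 219.5, 194.1 and 244.1 CPM, apart from the Klra6, Cd160 and Xcl1 cluster (144.6 ± 23.2 CPM) and NK cells (123.5 ± 8.14 CPM). Regulatory T cells had 69.71, 59.77, 73.75 and 65.79 CPM, below every mouse of the other T cell classes. They were thus highest in Icos and lowest in Cd226 among the T cell classes. CD8 T cells, highest in Cd226, were not lowest in Icos (331.3 CPM against 79.41 CPM in the Klra6, Cd160 and Xcl1 cluster).

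**Figure D1:**
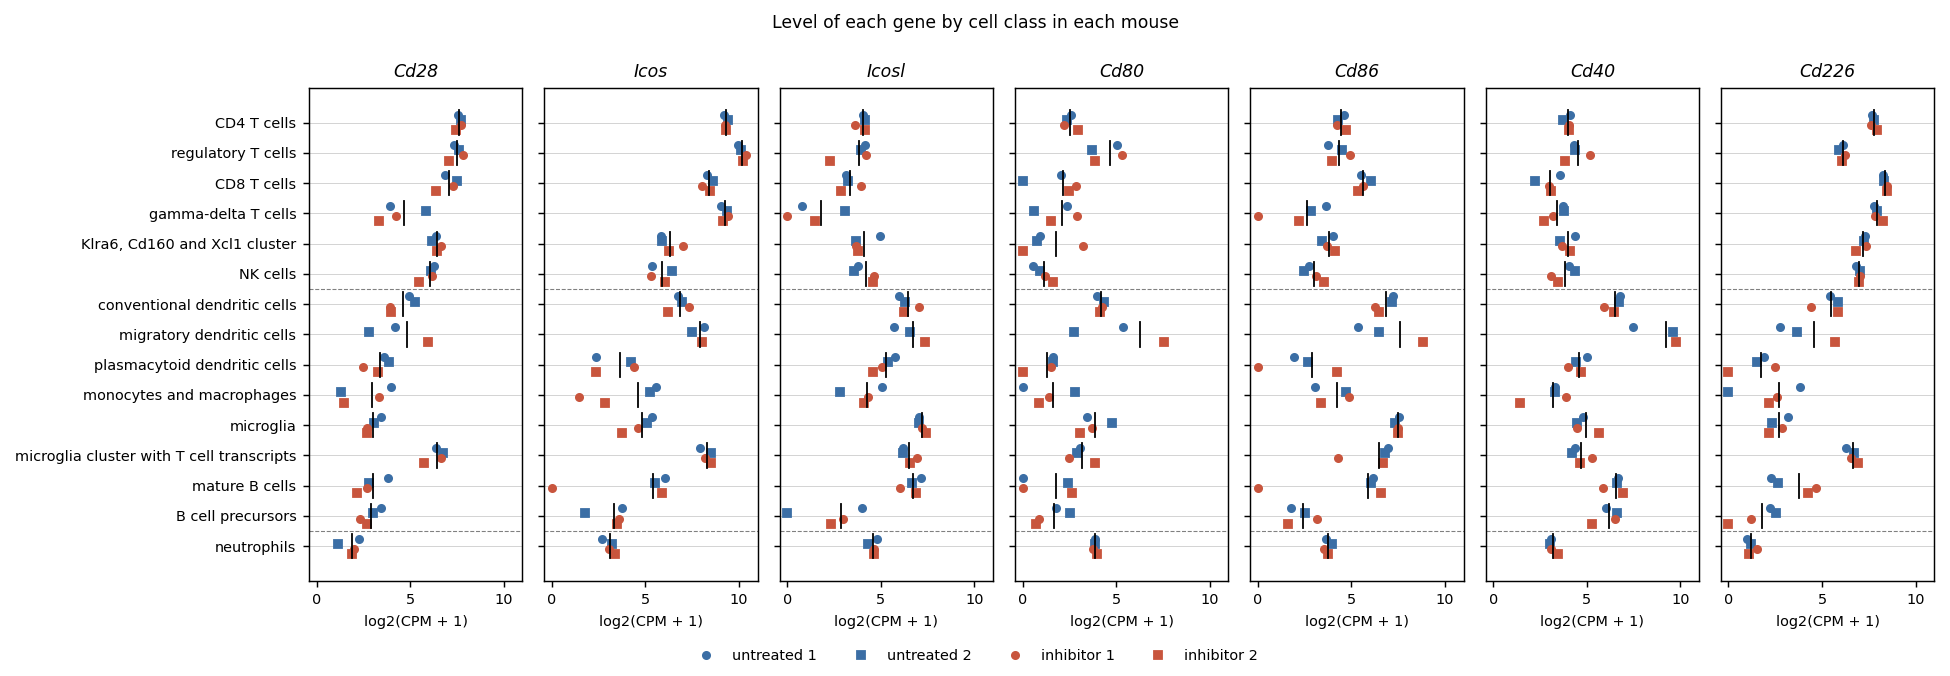
Level of each of the 7 genes by cell class, as log2(CPM + 1) on the horizontal axis, with 1 point per mouse with at least 10 cells and a black bar for the mean over mice. Icos in regulatory T cells (mean 1143 CPM) and Cd226 in CD8 T cells (mean 333.4 CPM) stand to the right of the other classes in every mouse, and Cd40 is highest in migratory dendritic cells (mean 609.8 CPM).

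Icosl, the ligand of ICOS, lies on chromosome 10 (78069302 to 78083913, plus strand). Its highest mean was in microglia, the resident macrophages of the spinal cord, at 129.3, 130.8, 148.5 and 167.9 CPM (144.1 ± 18.1, n = 4). Mature B cells had 138.4, 99.58, 65.33 and 115.4 CPM and overlapped the microglia, as did 44 migratory dendritic cells (103.0 ± 56.8 CPM, n = 3 mice with at least 10 cells). Conventional dendritic cells had 85.42 ± 29.5, plasmacytoid dendritic cells 37.66 ± 13 and neutrophils 23.23 ± 3.04 CPM. In microglia the level was much the same in 685 cells with T cell receptor transcripts (147.3 CPM) and in 565 without (142.5 CPM).

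Cd80 and Cd86, the ligands of CD28 and CTLA4, lie near each other on chromosome 16 (38455561 to 38496335, plus strand, and 36603869 to 36666081, minus strand). Cd80 was sparse, with a count in 1262 of the 25461 deposited columns. In migratory dendritic cells it varied from 39.98 and 5.855 CPM in the untreated mice to 186.9 CPM in inhibitor replicate 2. Regulatory T cells followed at 32.41, 12.27, 38.35 and 13.38 CPM, above the 4.911 CPM of CD4 T cells in every mouse, and then conventional dendritic cells at 17.40 ± 2.17, microglia at 13.92 ± 8.46 and neutrophils at 13.61 ± 0.877 CPM. These neighbours in the order overlapped.

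Cd86 had 2 main places, dendritic cells and microglia. Microglia had 187.4, 159.1, 180.5 and 180.5 CPM (176.9 ± 12.3, n = 4). Their range lay above that of conventional dendritic cells, at 149.3, 145.3, 75.94 and 88.13 CPM, in which the untreated mice were both higher than the treated. Migratory dendritic cells had 194.9 ± 228 CPM (n = 3) and overlapped both. Mature B cells had 70.14, 66.14, 0 and 94.09 CPM, with the 0 in a mouse with 38 such cells. CD8 T cells had 48.88 ± 10.7 CPM, apart from the 21.04 ± 3.45 CPM of CD4 T cells. Plasmacytoid dendritic cells, which have Icosl, had 6.405 CPM of Cd86, overlapping neutrophils at 12.27 CPM.

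Cd40, on chromosome 2 (165055627 to 165072948, plus strand), was highest in migratory dendritic cells, at 177.1 and 784.6 CPM in the untreated mice and 867.8 CPM in inhibitor replicate 2. Even the lowest of these lay above every other class. Mature B cells had 100.5, 97.35, 57.17 and 122.5 CPM, conventional dendritic cells 107.5, 106.1, 59.74 and 87.43 CPM, and B cell precursors 65.13, 97.96, 90.25 and 38.43 CPM, all overlapping. Within the precursors, cluster 14, led by Rag1 and Fam129c, had 119.1 ± 30.7 CPM, whereas cluster 21, led by Igll1 and Vpreb1, had 0, 8.937 and 3.702 CPM in the 3 mice with at least 10 cells, so the level of the class mixes a high and a low cluster. Microglia had 29.73 ± 13.3 CPM, so they combined high Icosl and Cd86 with a level of Cd40 below that of conventional dendritic cells in every mouse.

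The class of highest mean was unchanged for 7 of 7 genes when cells were weighted equally after scaling each to 10000 counts, and when a finer clustering was used. As a description over the means of the 18 classes, which share 1 run, the genes most like Cd28 were Lck (Pearson r = 0.956), the kinase that starts T cell receptor signalling, Prkcq (0.929) and Gstp3 (0.929). For Icos they were Cish (0.975), Bcl11b (0.944) and Lat (0.941), and for Cd226 Skap1 (0.971), Thy1 (0.970) and Ms4a4b (0.967). Icosl was most like Fbrsl1 (0.875), Il4ra (0.862) and C9orf72 (0.861). Cd86 was most like Tmem106a (0.884), C9orf72 (0.873) and Trafd1 (0.857), Cd80 most like Got1 (0.848), Tnip3 (0.844) and Gas2l1 (0.834), and Cd40 most like Il4i1 (0.929), Rel (0.913) and Tmod2 (0.896). Among the 7 genes themselves, Cd28, Icos and Cd226 correlated with each other at 0.855 to 0.887, and Icosl with Cd86 at 0.848.

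The regions just before the RefSeq start of 2 ligand genes are shown because Cd80 is a known target of NF-kB, the factor downstream of CD40, and both genes are ligands that these cells offer to T cells. RefSeq and GENCODE place these starts differently: the Cd80 window lies inside the GENCODE gene given above, whose start is farther upstream, and the Icosl window runs past the GENCODE start. They are the 250 bases before the RefSeq start on GRCm38.p6, at chr10:78069118-78069367 (plus strand) for Icosl and chr16:38458683-38458932 (plus strand) for Cd80, 5′ to 3′, with capitals for matches to an NF-kB motif (GGGA and CC with 4 bases of any kind between them) or an AP-1 motif (TGANTCA), searched on both strands.
Icosl: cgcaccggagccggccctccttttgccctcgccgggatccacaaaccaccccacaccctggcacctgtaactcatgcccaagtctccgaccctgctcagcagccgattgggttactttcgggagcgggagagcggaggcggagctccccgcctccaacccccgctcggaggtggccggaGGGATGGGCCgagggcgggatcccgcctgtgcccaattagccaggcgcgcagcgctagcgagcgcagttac
Cd80: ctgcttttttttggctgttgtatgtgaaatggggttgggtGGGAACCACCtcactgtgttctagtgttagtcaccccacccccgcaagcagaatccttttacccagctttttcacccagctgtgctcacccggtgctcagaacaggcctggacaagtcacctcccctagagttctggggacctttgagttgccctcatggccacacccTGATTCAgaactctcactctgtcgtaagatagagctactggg
Icosl has 1 NF-kB match, 71 bases before the start, and no AP-1 match in this window. Cd80 has an NF-kB match 210 bases and an AP-1 match 42 bases before the start, and the motifs do not overlap. Of 32851 such windows, 17.6% hold the NF-kB motif and 6.75% the AP-1 motif, so a match is a description of the letters and not a site. Cd28, Icos, Cd86 and Cd40 are named only.

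To compare cells within a lineage with a test, cells were split by transcripts that include none of the 7 genes, counts were summed per mouse on each side, and all genes were fitted with edgeR's quasi-likelihood test with the mouse as a block; p-values were adjusted by the Benjamini-Hochberg method across every gene fitted, with a threshold of 0.05. Among dendritic cells, 71 cells with at least 3 of 8 markers of migration to lymph nodes (among them Ccr7, Fscn1 and Ccl22) were set against the 436 others. Such cells, also called mature or activated, are the ones that carry antigen to T cells. Inhibitor replicate 1 had only 2 of them and did not enter the fit, which thus rests on 3 mice.

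Cd40 was the member that differed most. It stood at 337.9, 419.8 and 665.2 CPM in the migratory cells of the 3 mice and at 86.91, 99.98 and 77.36 CPM in the other dendritic cells, with no overlap. The log2 fold was 2.46 ± 0.27 (SE, adjusted p = 1.65e-05, edgeR). Cd40 was 515.2 CPM in 55 migratory cells with T cell receptor transcripts and 528.8 CPM in 16 without, against 69.09 CPM in 294 and 131.8 CPM in 142 of the other dendritic cells, so that the 2 sides lay closer together in cells without such transcripts. Cd86 rose from 134.1, 134.7 and 82.27 CPM to 229.5, 180.9 and 365.9 CPM, higher in 3 of 3 mice, with a log2 fold of 1.20 ± 0.33 (adjusted p = 0.0405, edgeR). With cells thinned to 2000 counts that fold was 0.11 and did not pass. It did not pass either without inhibitor replicate 2 (0.66), without untreated replicate 1 (1.43), with 2 (0.94) or 4 (0.82) markers needed in place of 3, or with bias-adjusted deviances (1.275), whereas Cd40 kept its call in every alternative run for this gate. In cells without T cell receptor transcripts Cd86 was 308.1 CPM in the migratory and 199.7 CPM in the other dendritic cells, and in cells with them 282.4 and 87.41 CPM.

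Cd80 was higher in 2 of 3 mice, at 73.31, 12.06 and 133.0 CPM against 9.922, 20.17 and 16.98 CPM, and did not pass (log2 fold 2.03 ± 0.72, adjusted p = 0.131, edgeR). It passed without untreated replicate 2 (3.06), with bias-adjusted deviances (2.31) and with doublet calls kept (2.23). Icosl, at 114.7, 65.14 and 172.6 against 55.43, 80.24 and 65.66 CPM, did not pass either (0.83 ± 0.40, adjusted p = 0.311). Icos, a T cell gene, also passed, at 184.9, 241.3 and 239.2 against 105.7, 106.4 and 62.27 CPM (1.39 ± 0.30, adjusted p = 0.00880, edgeR). T cell receptor transcripts moved with it: their sum was 1004, 2391 and 1403 CPM in the migratory cells and 603.2, 872.0 and 579.6 CPM in the others, and Icos was 258.0 CPM in the 55 migratory cells with such transcripts against 10.27 CPM in the 16 without. Icos did not pass with thinned cells (0.82), without inhibitor replicate 2 (1.06) or with 2 markers needed (1.33). In all, 3 of 7 members were called, against 6.13% of all 10451 genes tested.

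The partners of these genes are given from a list of 43 pathway genes in 5 groups, of which 39 were tested here. Of these, 12 were higher and 2 lower, with a median log2 difference of 1.31 against −0.21 over all genes. In the CD40 signalling group 7 of 10 were higher. Relb, an NF-kB subunit of the pathway downstream of CD40, was at 698.0, 395.7 and 514.7 CPM against 67.40, 61.79 and 67.17 CPM, with no overlap and a log2 fold of 3.07 ± 0.24 (adjusted p = 2.89e-07, edgeR). Traf1, an adaptor of CD40, had 643.9, 617.6 and 662.0 against 109.5, 114.1 and 113.6 CPM (2.59 ± 0.20, adjusted p = 3.80e-07), and Map3k14, the kinase NIK, passed at 2.48 ± 0.30, Traf3 at 2.31 ± 0.66, Nfkb2 at 1.84 ± 0.22, Birc3 at 1.51 ± 0.35 and the feedback inhibitor Tnfaip3 at 1.5 ± 0.21.

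Other ligands rose as well. Pvr, the ligand of CD226, TIGIT and CD96, had 146.6, 156.8 and 223.3 CPM against 24.63, 45.06 and 34.34 CPM (log2 fold 2.43 ± 0.35, adjusted p = 2.68e-04, edgeR). The PD-1 ligands Cd274 (2.38 ± 0.33) and Pdcd1lg2 (2.15 ± 0.49) passed too, making 3 of 7 tested ligands. Migratory cells were thus higher both in Cd40, a receptor through which T cells activate dendritic cells, and in the ligands of the inhibitory receptor PD-1. In the group of CD28 and ICOS signalling genes, Pik3r1 was higher (1.92 ± 0.37) and Vav1 was lower (−2.14 ± 0.53). Cxcr5, 1 of the 12 counted as higher, was at 3.187, 21.71 and 80.77 CPM against 0 in all 3 mice. It could pass the filter on low counts only through the migratory side, so its call is given no fold and no weight.

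**Figure D2:**
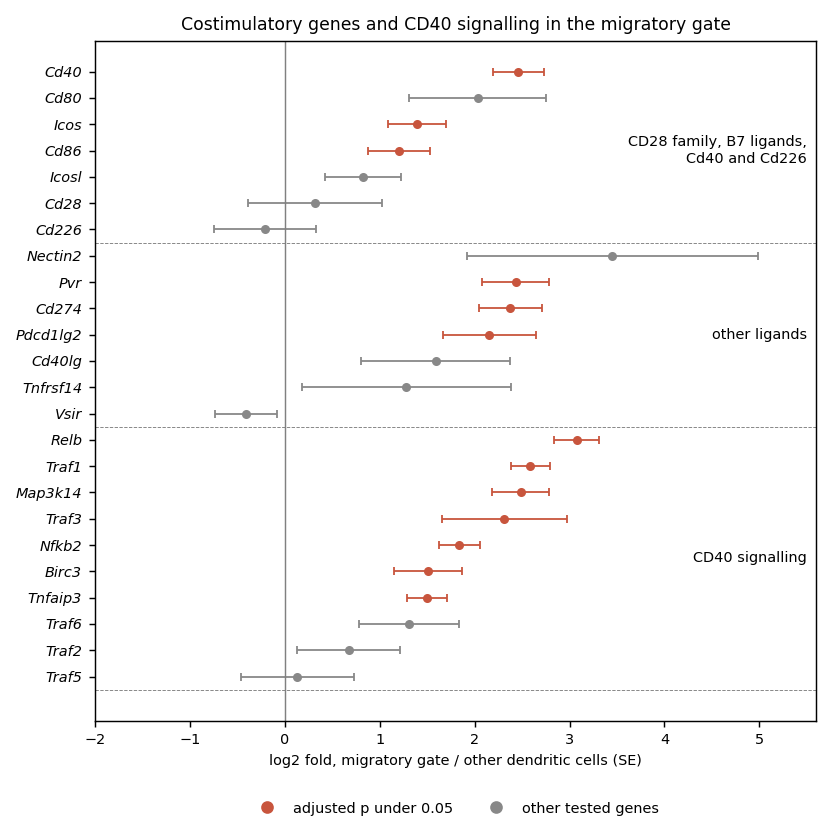
Log2 difference between migratory and other dendritic cells (horizontal axis, with its standard error, 3 mice) for the 7 genes and the tested genes of the ligand and CD40 signalling groups, with red points for an adjusted p under 0.05 and grey points for the other tested genes. Cd40 (2.46), Relb (3.07), Traf1 (2.59), Pvr (2.43) and Cd274 (2.38) lie far to the right of 0.

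In CD4-type T cells (the CD4 and regulatory T cell classes together), 573 cells with a Foxp3 count were compared with 4692 without. Icos was at 997.4, 1029, 1209 and 1028 CPM in Foxp3-positive cells and at 583.4, 687.3, 619.6 and 644.0 CPM in the others. Every mouse was higher on the Foxp3 side and the sides did not overlap, with a log2 fold of 0.67 ± 0.08 (SE, adjusted p = 5.76e-04, edgeR). Cd226 went the other way, at 66.74, 87.73, 129.9 and 93.18 CPM against 201.7, 213.9, 186.0 and 243.3 CPM, again with no overlap, and fell by 1.30 ± 0.16 on the log2 scale (adjusted p = 9.82e-04, edgeR). Cd28 stood at 168.5, 183.6, 264.6 and 134.2 against 186.4, 211.3, 208.1 and 174.7 CPM and did not pass (−0.18 ± 0.13, adjusted p = 0.533). Cd80 was higher in 4 of 4 mice, at 24.61, 11.51, 38.03 and 8.781 against 7.580, 4.399, 3.953 and 7.313 CPM, and did not pass (1.53 ± 0.46, adjusted p = 0.0910, edgeR; DESeq2 called it). In all, 2 of 7 members were called, against 5.33% of 13403 genes; cells with a Foxp3 count had a median of 9601 counts and those without 7106, and both calls held with every cell thinned to 2000 counts.

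Of 40 tested pathway genes, 6 were higher and 4 lower in Foxp3-positive cells, with a median of −0.05 against −0.04 over all genes. Among the inhibitory receptors, Ctla4, which regulatory T cells use to remove CD80 and CD86, had 484.0, 528.0, 535.6 and 382.0 CPM against 76.18, 96.37, 88.75 and 89.14 CPM (log2 fold 2.37 ± 0.12, adjusted p = 1.87e-06, edgeR). Tigit, the inhibitory competitor of CD226, rose by 1.51 ± 0.20, while Cd96, another receptor of the same ligand, fell by 1.30 ± 0.17. Cd40lg, the ligand of CD40, was at 11.19, 26.76, 25.35 and 35.61 CPM against 110.8, 121.7, 131.4 and 98.61 CPM and fell by 2.36 ± 0.26 (adjusted p = 4.33e-04, edgeR). Thus Cd226 and Cd96 were lower and Tigit higher among the receptors of PVR, and the transcript that would engage CD40 was lower, in the cells with the most Icos and Ctla4. Maf (0.96 ± 0.16), Bcl2l1 (0.77 ± 0.19), Pdcd1lg2 (1.18 ± 0.30) and Nfkb2 (0.59 ± 0.12) were the other genes that rose, and the kinase Pik3cd (−0.58 ± 0.14) was among those that fell.

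Effector cells were compared with 3238 CD4-type T cells with no count of Il17a, Ifng or Csf2, the cytokine genes of pathogenic T cells in EAE. In 1622 cells with Ifng or Csf2 and without Il17a, Cd226 had 233.9, 257.7, 227.6 and 312.1 CPM against 135.9, 136.2, 152.3 and 154.5 CPM. Every mouse was higher and the sides did not overlap, with a log2 fold of 0.86 ± 0.09 (adjusted p = 4.76e-04, edgeR). Cd86, at 28.07, 27.75, 23.50 and 29.62 against 15.35, 13.65, 18.30 and 17.33 CPM, was higher in 4 of 4 mice but did not pass (0.80 ± 0.19, adjusted p = 0.0624, edgeR; DESeq2 called it). Icos, at 603.0, 653.4, 618.2 and 617.3 against 702.2, 759.2, 676.2 and 733.0 CPM, was lower in 4 of 4 mice and did not pass (−0.18 ± 0.05, adjusted p = 0.124). Here 1 of 7 members was called, against 2.08% of 14440 genes.

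The cells without cytokines include regulatory T cells, a class with a mean Cd226 of 67.25 CPM against 215.3 CPM in CD4 T cells. Its mean Icos was 1143 CPM against 621.6 CPM. For the Ifng or Csf2 gate, the folds of Cd226 and Icos without that class are not given here. Of the 40 pathway genes tested none was higher and 2, Ctla4 (−0.93 ± 0.09) and Maf (−0.48 ± 0.10), were lower in the Ifng or Csf2 cells. Ctla4 and Maf were also higher in Foxp3-positive cells (2.37 and 0.96, as given above). Their folds here without the regulatory T cell class are not given. In 405 cells with Il17a, Icos had 784.3, 942.2, 1074 and 842.8 CPM against 702.2, 759.2, 676.2 and 733.0 CPM, higher in every mouse with no overlap, and did not pass (0.37 ± 0.09, adjusted p = 0.271, edgeR). DESeq2 called it, and so did edgeR without the regulatory T cell class (0.54, a comparison added after seeing the data). Cd226 had 118.5, 242.1, 158.2 and 175.3 CPM in Il17a cells, spanning the 135.9 to 154.5 CPM of the cells without cytokines (0.28 ± 0.18, adjusted p = 0.812). In all, edgeR called 0 of 7 members and 0 of 40 pathway genes there, against 0.162% of 12355 genes, and DESeq2 called 1 member. An unadjusted p under 0.05 was found for 2 members and for 904 of the 12355 genes. Il17a and Ifng or Csf2 cells were not tested against each other; cells with a cytokine count were deeper (medians of 9605 and 9417 counts against 6162), and the Cd226 call held after thinning.

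**Figure D3:**
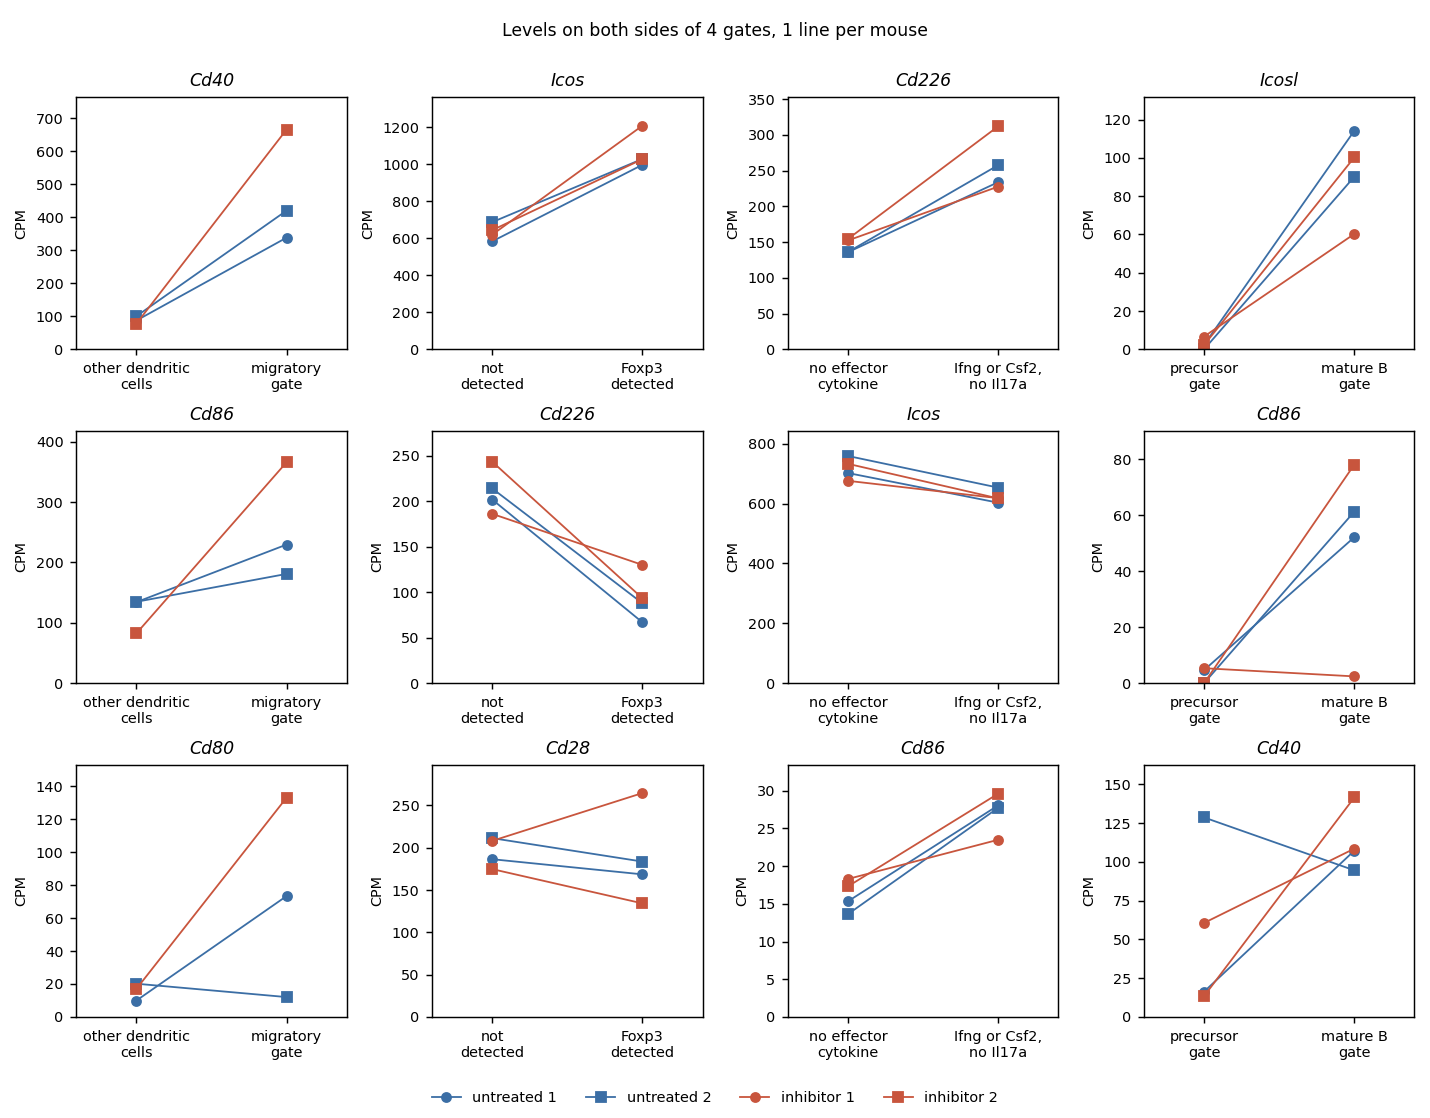
Levels in CPM on both sides of the 4 gates in which a member was called, with 1 line per mouse (3 mice for the migratory gate) and 3 genes per gate. All lines rise for Cd40 in migratory dendritic cells, Icos in Foxp3-positive cells, Cd226 in Ifng or Csf2 cells and Icosl in mature B cells, and all fall for Cd226 in Foxp3-positive cells. Icosl could pass the filter on low counts only through the mature side, so its call carries no weight.

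In B lineage cells, 384 cells with at least 2 of 7 mature B cell markers (among them Ighd and Fcer2a) were compared with 303 cells with at least 2 of 7 precursor markers (among them Rag1 and Vpreb1). Icosl had 114.2, 90.19, 60.28 and 100.3 CPM in mature and 2.329, 0, 6.661 and 2.243 CPM in precursor cells, with no overlap. It could pass the filter on low counts only through the mature side, so its call is given no fold and no weight. Cd86 had 52.18, 61.33, 2.411 and 78.14 CPM against 4.659, 0, 5.329 and 0 CPM, higher in 3 of 4 mice. It too could enter the test only through the mature side, and it was not called (adjusted p = 0.0570, edgeR). Cd40, at 107.2, 94.52, 108.5 and 141.5 against 16.31, 128.6, 60.62 and 13.46 CPM, was higher in 3 of 4 mice and did not pass (1.64 ± 0.54, adjusted p = 0.0674, edgeR). DESeq2 called all 3. In all, 1 of the 6 members tested, Icosl, was called, against 9.59% of 9409 genes. Untreated replicate 2, the mouse with the reversed Cd40, had 26 precursor cells.

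Of 31 tested pathway genes, 9 were higher and 2 lower in mature B cells, with a median of 0.97 against 0.04 over all genes. Btla, the inhibitory receptor of this group that B cells carry, had 145.2, 213.6, 267.6 and 150.4 CPM against 2.329, 6.123, 7.327 and 8.971 CPM. Malt1 (1.79 ± 0.35), which helps join antigen receptors to NF-kB, rose, as did Nfkb2 (1.47 ± 0.39), Grb2 (1.58 ± 0.32) and Myc (2.22 ± 0.52). The follicle homing receptor Cxcr5, counted among the 9, had 126.9, 127.7, 57.87 and 86.98 CPM against 0, 6.123, 0 and 1.121 CPM. Cd274, also among the 9, had 86.02, 107.5, 53.05 and 126.8 CPM against 9.318, 6.123, 10.66 and 7.850 CPM. Btla, Cxcr5, Cd274 and Traf1, all counted as higher, could pass the filter only through the mature side. No fold is given for them. The survival gene Bcl2l1 (−3.69 ± 0.61) and Akt1 (−1.64 ± 0.35) were lower.

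The inhibitor was compared with no treatment within the 13 classes that had at least 30 cells in every mouse, with edgeR's quasi-likelihood test on the sums of 2 mice against 2. Of 91 member and class pairs, 73 passed the filter on low counts and were tested. None was called by edgeR and none by DESeq2; 6 had an unadjusted p under 0.05, and the lowest adjusted p was 0.973. Over all genes the shares were as low: 0.00658% were called in CD4 T cells, 0.0101% in CD8 T cells, 0.0304% in NK cells and 0% in the other 10 classes. These counts rest on single mice: leaving 1 out gave 0 to 824 called genes in regulatory T cells (824 without inhibitor replicate 2), 4 to 457 in B cell precursors and 0 to 450 in neutrophils (457 and 450 without untreated replicate 1), and 7 to 119 in NK cells (119 without inhibitor replicate 2).

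In CD4 T cells the receptors lay close to each other in all mice. The log2 folds of the inhibitor over no treatment were −0.05 ± 0.13 for Cd28, −0.04 ± 0.11 for Icos and 0.05 ± 0.14 for Cd226, each with overlapping groups and adjusted p = 1.000 (edgeR). In microglia Cd86 had a fold of 0.05 ± 0.21 and Icosl, higher in both treated mice, one of 0.27 ± 0.21 (adjusted p = 1.000 for both). A p that misses the threshold does not show that these values are alike.

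The 6 pairs with an unadjusted p under 0.05 all had groups that did not overlap. Of all genes, 464 of 11339 in conventional dendritic cells, 475 of 11271 in regulatory T cells and 508 of 13799 in microglia had such a p. In the Klra6, Cd160 and Xcl1 cluster it was 428 of 9265 and in the unnamed cells 366 of 8199. How many of all genes had groups without overlap was not counted. Cd86 in conventional dendritic cells, at 149.3 and 145.3 CPM without and 75.94 and 88.13 CPM with the inhibitor, had a log2 fold of −0.87 ± 0.23 (adjusted p = 0.998, edgeR). The fold was −1.33 in the cells without transcripts of other lineages and −0.46 with doublet calls kept. Icos in regulatory T cells, at 980.8 and 1080 against 1316 and 1194 CPM, had a fold of 0.29 ± 0.12 (adjusted p = 0.995, edgeR), and 0.09 in the cells without transcripts of other lineages. Icos in microglia, at 39.80 and 32.36 against 22.84 and 12.64 CPM, had a fold of −1.06 ± 0.37 (adjusted p = 1.000, edgeR).

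T cell receptor transcripts in microglia also stood at 297.1 and 253.5 CPM without and 95.18 and 154.4 CPM with the inhibitor, and in the microglia without them the Icos fold was 0.36. Cd28 in conventional dendritic cells (−1.24 ± 0.43) was at 0 in the cells without T cell receptor transcripts, as given above. The other 2 pairs were Icos in the Klra6, Cd160 and Xcl1 cluster (0.88 ± 0.35) and in the unnamed cells (−1.44 ± 0.55). None of the 43 pathway genes was called in any of 442 gene and class pairs, and the median fold of the list lay between −0.33 and 0.25 over the classes.

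**Figure D4:**
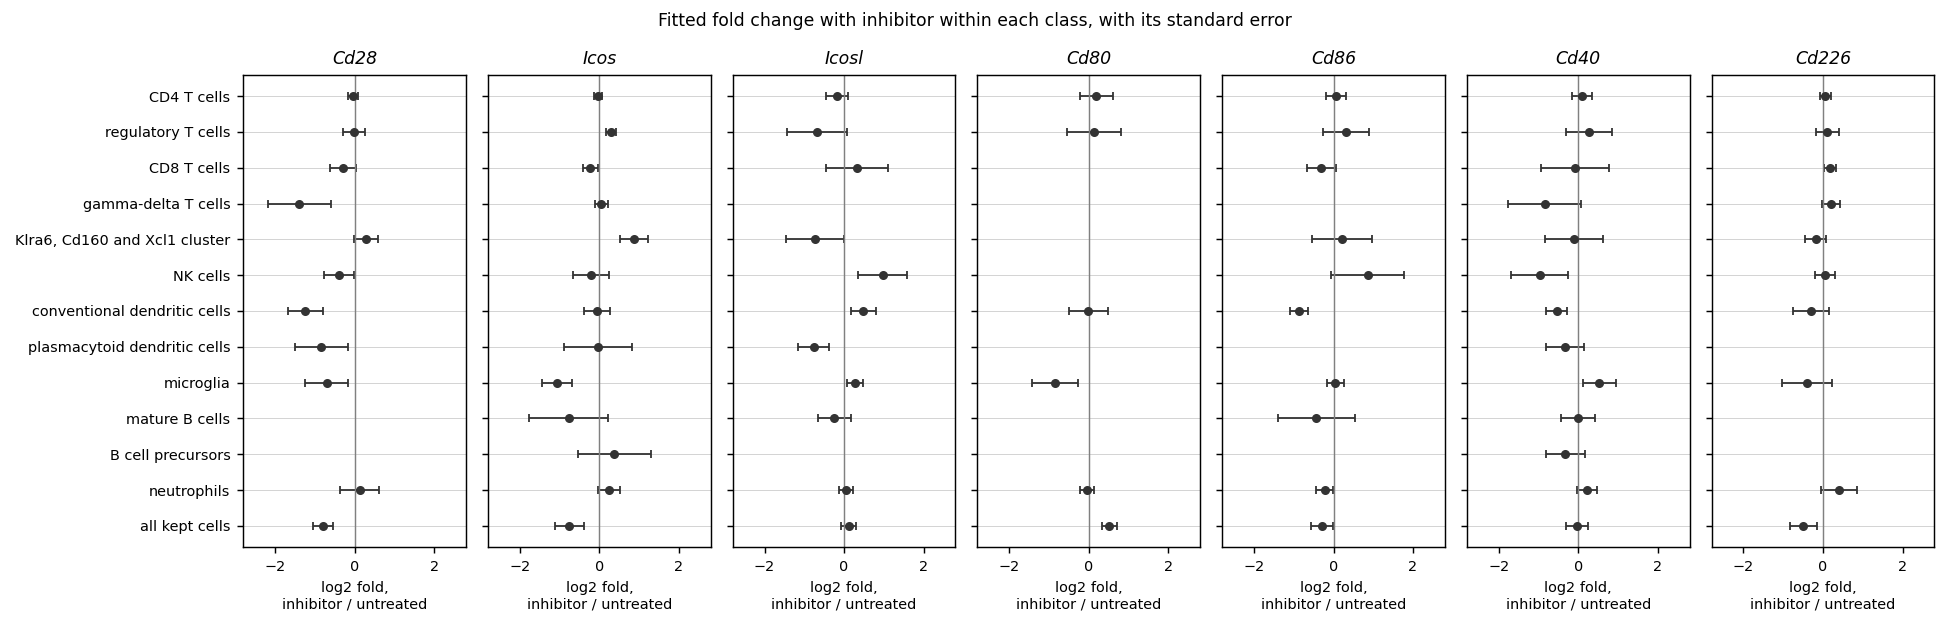
Log2 fold change with the inhibitor over no treatment (horizontal axis, with its standard error) for the 7 genes within each tested class and over all kept cells. No fold passed the test; those of Cd28 (−0.046), Icos (−0.037) and Cd226 (0.053) in CD4 T cells lie near 0, while over all kept cells Cd28 (−0.80) and Icos (−0.75) lie left of 0.

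Summed over all kept cells of a mouse, Cd28, Icos and Cd226 lay lower in both treated mice, without passing the test. Cd28 was at 72.08 and 90.72 CPM without and 29.69 and 53.69 CPM with it (log2 fold −0.80 ± 0.25, adjusted p = 0.460, edgeR), and Icos at 242.6 and 329.0 CPM without and 89.63 and 215.8 CPM with it (−0.75 ± 0.37, adjusted p = 0.529). For Cd226 the values were 87.26 and 97.59 CPM without and 34.56 and 83.24 CPM with the inhibitor (−0.50 ± 0.34, adjusted p = 0.605). Cd80 was on the other side of 0, at 9.412 and 7.837 against 10.25 and 11.26 CPM (0.52 ± 0.18, adjusted p = 0.460). These groups of values did not overlap, but edgeR called 0 of the 7 members and 0% of 21152 genes. An unadjusted p under 0.05 was found for 2 members and for 2151 of the 21152 genes. DESeq2 called 0 members and 450 of all genes. The count of all genes with groups that did not overlap was not taken. The share of CD4 T cells moved with the receptors, as given above, and inhibitor replicate 1 had both the lowest share and the lowest level; in such sums fewer T cells and less RNA per T cell cannot be told apart. Without inhibitor replicate 2, Cd28 (−1.12), Icos (−1.34) and Cd226 (−1.09) were called.

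Whether the differences between gates depended on the inhibitor was tested as an interaction in 34 member and gate pairs. None was called by edgeR (lowest adjusted p = 1.000), none by DESeq2, and 2, Cd86 and Cd40 in the migratory gate, had an unadjusted p under 0.05. The treated group there is 1 mouse, which is assumed to vary like the 2 untreated mice, so no size or error is given for them. Of all genes, 0.00854% were called in the migratory gate, 0% in the Foxp3 and Il17a gates, 0.00693% in the Ifng or Csf2 gate and 0.0425% in the B cell gate.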

How the data were processed

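The values are raw counts per gene and cell, whole numbers as the authors deposited them; per the submitters' processing notes reads were placed on GRCm38, and the file's name records an error-correction step (DBEC). No source used here gives the aligner, the counter, the use of strand or whether molecules or reads were counted. The 44 genes listed first, among them the gate marker Ccl22 but none of the 7 genes described, have no nonzero count below 4. Some genes of the lists are counted in the totals but not reported here by name.

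Of 25461 columns, 3943 with more than 1 hashtag were left out, then cells over 20% mitochondrial counts (1014) and the 1248 cells with most hashtag doublets among their 50 nearest neighbours; hashtag doublets had a median share of 0.18 and single-hashtag cells 0.08. The doublet step removed 8.38% and 8.43% of the untreated and 3.70% and 4.35% of the treated mice's single-hashtag cells. Clustering (2000 variable genes, 40 components, 20 neighbours, Leiden at a resolution of 1.0; python 3.11.15, numpy 2.4.6, scipy 1.17.1, pandas 2.3.3, scikit-learn 1.9.0, igraph 0.11.9, leidenalg 0.10.2) did not use the 7 genes or the receptors and ligands of the pathway list. A class name needed 3 markers, each in 25% of a cluster's cells, and the CD8 T cell and progenitor clusters were split by a finer clustering chosen after seeing the data. A cluster of 531 cells that the marker rule left unnamed had Cd160 and Xcl1 each in more than 25% of its cells. It was made a class named by its leading genes Klra6, Cd160 and Xcl1.

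Groups came from the hashtag labels. Counts were summed per mouse and class (at least 30 cells per mouse) or gate (at least 10), filtered by filterByExpr, scaled by TMM and tested with edgeR 4.0.16 (R 4.3.3) over all genes; each SE is the fold divided by the root of the F statistic. DESeq2 1.42.0 was an alternative. The scripts were tested on simulated data. Named are the 7 genes, the pathway genes that passed, and for each of the 7 the 3 genes with the highest correlation of log2(CPM + 1) over class means, among genes reaching 20 CPM. The members and lists were chosen with earlier results of these data known. Figures used matplotlib 3.10.9.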

Additional observations from a re-analysis of the deposited data

How the results depend on the processing

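For the 7 genes, the count of calls was 0 under every alternative run for the inhibitor within classes and for the interaction (0 to 0 with a mouse left out), except that leaving out a mouse gave 0 to 2 within classes (Cd86 and Icos in mature B cells without inhibitor replicate 2, Icos in the unnamed cells without untreated replicate 1) and 0 to 3 over all kept cells. In the migratory gate the count of 3 became 1 with cells thinned to 2000 counts, 1 with 2 markers needed, and 1 to 4 with a mouse left out. In the Foxp3 gate it was 2 to 2 with a mouse left out. In the Il17a gate the count of 0 became 1 with DESeq2 and 1 without the regulatory T cell class (added after seeing the data), and 0 to 0 with a mouse left out. In the Ifng or Csf2 gate the count of 1 became 3 without a filter, 3 with DESeq2, 2 with bias-adjusted deviances, 2 with no replicate block, and 1 to 2 with a mouse left out. In the B cell gate the count of 1 became 3 without a filter, 3 with DESeq2, 3 with bias-adjusted deviances, 3 with at least 3 markers and none of the other gate, and 1 to 2 with a mouse left out. Over all genes, the 0 called for the inhibitor in all kept cells became 450 with DESeq2 and 2028 without inhibitor replicate 2. The 641 of the migratory gate became 331 without untreated replicate 1, 417 after thinning and 361 with 2 markers needed. The 715 of the Foxp3 gate became 1314 without a filter and 249 without untreated replicate 2, the 20 of the Il17a gate 115 and 4 (without a filter, without inhibitor replicate 2), the 300 of the Ifng or Csf2 gate 779 and 75 (without a filter, without untreated replicate 1), and the 902 of the B cell gate 1366 and 434 (bias-adjusted deviances, without inhibitor replicate 2). The inhibitor fold in CD4 T cells changed sign with a mouse left out, between −0.184 and 0.092 for Cd28, −0.147 and 0.094 for Icos and −0.132 and 0.217 for Cd226, and with finer clusters for Cd28 (0.013, added after seeing the data). In microglia it changed sign for Icos in cells without transcripts of other lineages (0.359), for Icosl after thinning (−0.062), and for Cd86 after thinning (−0.010) and with a mouse left out (−0.051 to 0.163). The cause was not tested. The same-numbered mice share only a number (correlation of their deviations 0.0309 over 15518 genes); with it as a replicate block, 0 members were called within classes and 0 over all kept cells. The migratory gate could not be fitted on cells without transcripts of other lineages. Precision is limited by 2 mice a group, by 44 migratory dendritic cells and by Cd80, of whose nonzero counts 46.7% were 1.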

Other observations

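Within conventional dendritic cells, 163 cells with only Xcr1 or Clec9a counts, genes of the cross-presenting subset, and 110 cells with only Cd209a or Clec10a counts, genes of the other main subset, were set side by side. Icosl was at 50.49, 26.06, 59.84 and 57.83 CPM in the former and at 67.42, 116.5, 294.2 and 130.6 CPM in the latter, higher in the Cd209a or Clec10a cells of all 4 mice with no overlap. Cd86, at 150.0, 139.3, 59.84 and 65.59 against 108.4, 205.7, 76.57 and 142.5 CPM, and Cd40, at 72.12, 69.15, 59.84 and 58.54 against 142.8, 112.8, 52.39 and 125.9 CPM, overlapped between the subsets, as did Cd80 at 7.934, 13.03, 7.805 and 15.52 against 10.58, 47.32, 20.15 and 21.37 CPM. The former subset had 54, 41, 14 and 54 cells per mouse and the latter 47, 22, 17 and 24, so some of these levels rest on few counts. These subsets were added after seeing the data and were not tested.

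The clusters of CD4 T cells varied in the receptors as well. Cluster 8, led by Nrgn, Igfbp7 and Rgs16 and with the activation genes Nr4a3 and Tnfrsf9 among its leading genes, had Icos at 652.2, 828.3, 840.0 and 715.2 CPM and Cd226 at 170.7 ± 50.9 CPM (SD, n = 4). Cluster 20, led by genes of dividing cells such as Nusap1 and Rrm2, had Icos at 335.4, 465.4, 333.7 and 299.7 CPM, below every mouse of the 3552 cells of cluster 0 (638.7 ± 43.6 CPM), and Cd226 at 256.0 ± 46.7 CPM. CPM is relative to all counts, and cluster 20 had a median of 17468 counts per cell against 6796 in cluster 0. An Icos count was found in 73.1% of its cells against 61.7%, and after thinning in 41.0% against 46.2%. As a description, with cells thinned to 2000 counts, 23.9% of CD4 T cells with an Icos count and 19.8% of those without had a Cd28 count, and 77.8% of 9 migratory cells with a Cd80 count and 27.4% of the others had a Cd40 count. The microglia cluster with T cell transcripts had Icos at 312.9 ± 62.0 and Icosl at 89.29 ± 23.5 CPM, and was at 322.6 CPM of Icos in 370 cells with T cell receptor transcripts and 55.14 CPM in 53 without.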
